A study of Mus musculus with 12 samples.

Results

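Bone marrow-derived macrophages (BMDMs) that differentiated in the presence of activin A were compared with untreated BMDMs (CTRL). Both groups were grown in vitro from bone marrow progenitor cells of adult wild-type *C57BL6/J* mice in medium with recombinant mouse M-CSF at 50 ng/ml, the growth factor that drives macrophage differentiation. The Act group also received 50 ng/ml recombinant activin A for 6 days, and CTRL received none. Each group had 3 libraries, which are 6 of the 12 libraries of the series. The other 6 libraries, of cells given 250 ng/ml FST288 (a form of the activin-binding protein follistatin) with or without activin A, entered the model as well and share with the others the estimate of the spread. Of the 18376 genes in the table, the 14318 whose normalized counts averaged 5 or more across the series were all tested. Libraries with the same replicate number were treated as pairs. The labels do not say what the numbers stand for or whether the replicates came from separate mice, so p-values measure the spread between these libraries. Values per library are given in the order of replicates 1, 2 and 3.

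Activin A is a secreted dimer of the TGF-β superfamily. It binds a type II receptor, which recruits and activates a type I receptor, and the pair of receptors phosphorylates SMAD2 and SMAD3, which join SMAD4 and act on genes in the nucleus together with the transcription factors of the cell. Among the genes induced in many cell types are inhibitors of the same pathway. In macrophages and microglia, ligands of this superfamily are known to shape tissue identity and the inflammatory state.

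A normalized count is the read count of a gene after the authors' scaling of each library, given as a whole number. Totals per library ranged from 5643708 to 5955400 in the 6 libraries, and between 17379 and 17672 genes had a value above 0. Differentially expressed genes (DEGs) had to differ 2-fold or more, with a limma p, adjusted by Benjamini-Hochberg, of 0.05 or less. Fold changes are on the scale of log2(normalized count + 1), on which the change of a gene with few counts is understated. In what follows, a gene "passed" when its adjusted p was at most 0.05, whatever its fold change.

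Activin A changed many genes by a little and few genes by a lot. Of the genes tested, 403 were DEGs higher in Act (2.81%) and 499 were DEGs lower in Act (3.49%). At like thresholds but with DESeq2, the study reported more DEGs in each direction for this comparison, and more rises than falls. The cause of this difference was not tested. Regardless of fold change, 2338 genes passed as higher (16.3%) and 2170 as lower (15.2%), so that 1935 of the rises and 1671 of the falls lay under 2-fold. Without the replicate block the counts by adjusted p alone were 1468 and 1428, and the DEGs numbered 369 and 442. The 3 Act libraries lay above all 3 CTRL libraries for 2580 genes (18.0%) and below them for 2525 genes (17.6%). Among the DEGs, 401 of the 403 rises and 490 of the 499 falls had the same direction in all 3 pairs. The upper tails were unequal. At least 16-fold changes numbered 18 among the rises and 1 among the falls, whereas at least 4-fold changes numbered 119 and 125. DEGs were mostly genes of low level, with a median over the 6 libraries of 47.0 normalized counts for rises and 28.7 for falls, compared with 249 for all genes tested. Long noncoding genes made up 49 of the rises and 54 of the falls, out of 1099 tested.

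**Figure D1:**
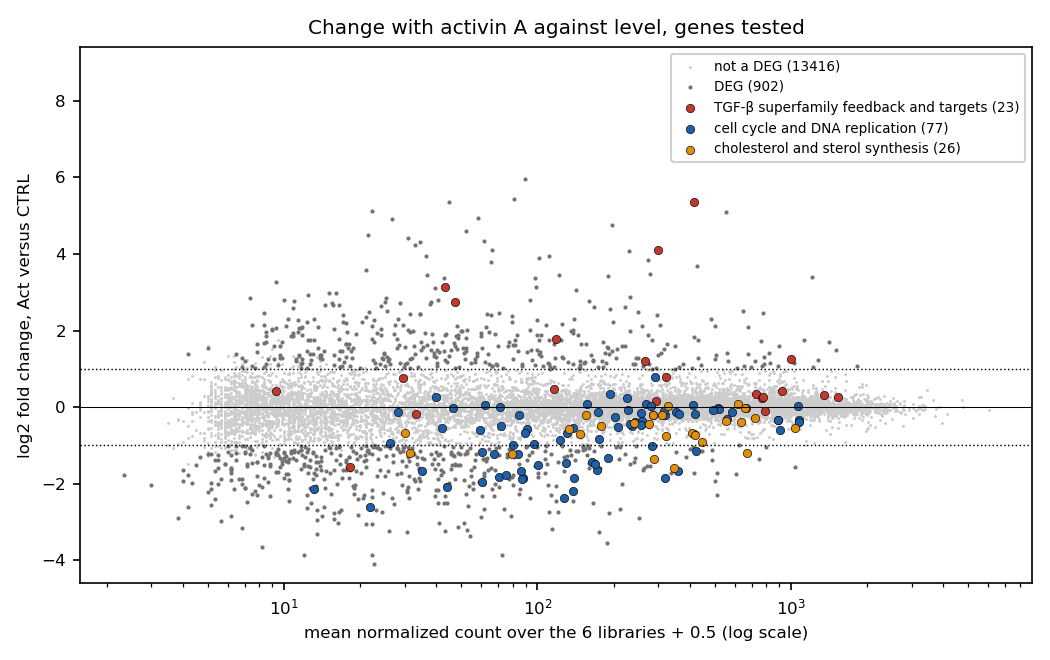
Log2 fold change of Act versus CTRL (y axis) against the mean normalized count over the 6 libraries plus 0.5 (x axis, log scale) for the genes tested, with dotted lines at 2-fold. The 902 DEGs are dark grey, and coloured points mark the TGF-β superfamily list (red), the cell cycle list (blue), which lies mostly below 0, and the sterol synthesis list (orange), of which 21 of 26 genes passed as lower.

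Genes known as feedback inhibitors or targets of the TGF-β superfamily rose. Of the 23 tested, 17 passed as higher and 2 as lower, and 7 and 1 of these were DEGs, at a median log2 fold change of 0.41 (0.0036 for all genes tested). *Pmepa1* (ENSMUSG00000038400, chr2:173224458-173276533), which encodes a membrane protein that keeps SMAD2 and SMAD3 from the receptor, had 14, 50 and 9 normalized counts in CTRL against 756, 792 and 871 in Act. The Act libraries lay far above CTRL, and CTRL replicate 2 lay above the other CTRL libraries (log2 fold change 5.35, SE 0.39, adjusted p = 2.1e-07). *Spsb1*, encoding a SOCS-box adaptor of ubiquitin ligases, rose from 34, 43 and 22 normalized counts in CTRL to 532, 522 and 635 in Act (log2 fold change 4.10, SE 0.19, adjusted p = 4.5e-09). *Skil*, encoding the SMAD corepressor SnoN, started at a higher level, with 646, 549 and 574 normalized counts in CTRL against 1451, 1367 and 1426 in Act, so that the rise was smaller as a ratio and larger as an amount (log2 fold change 1.26, SE 0.07, adjusted p = 1.7e-08). The DEG in the other direction, named here after its value was seen, was *Cdkn2b*, encoding an inhibitor of cyclin-dependent kinases, with 38, 21 and 22 normalized counts in CTRL against 7, 7 and 11 in Act.

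The receptors and SMADs themselves moved less. Of 17 tested genes, 6 passed as higher and 2 as lower. *Tgfbr1*, encoding the type I receptor for TGF-β, had 1224, 1083 and 1165 normalized counts in CTRL against 2268, 1950 and 2149 in Act. This was a rise in all pairs that stayed under 2-fold (log2 fold change 0.87). *Tgfbr2*, encoding the type II receptor for TGF-β, had 1729, 1523 and 1648 normalized counts in CTRL against 1697, 1579 and 1481 in Act and did not pass (adjusted p = 0.47). The list's only DEG was *Tgfbr3*, encoding the coreceptor betaglycan, which was lower at 28, 13 and 14 normalized counts in Act compared with 40, 39 and 40 in CTRL (chosen after its values were seen).

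The 15 largest rises, taken from DEGs that averaged 50 or more and whose groups did not overlap, held genes for cell surface proteins, cell junctions and the matrix. *Gm33858* (ENSMUSG00000111792, chr9:120068996-120070622), annotated as an antisense RNA, was nearly absent from CTRL, with 1, 9 and 0 normalized counts in CTRL against 116, 185 and 222 in Act (log2 fold change 5.96, SE 0.59, adjusted p = 3.8e-06). *Gm33858* shares 78 exonic bases with *Cx3cr1* on the opposite strand, and the strand setting of the counting is not stated. *Ermap*, a membrane protein of the butyrophilin family known from erythroid cells, rose from 1, 4 and 4 normalized counts in CTRL to 151, 158 and 163 in Act (log2 fold change 5.42, SE 0.47, adjusted p = 1.0e-06). The olfactomedin-like secreted protein gene *Olfml3* had 22, 142 and 8 normalized counts in CTRL against 1055, 1008 and 1104 in Act, and CTRL replicate 2 again stood above the other CTRL libraries (log2 fold change 5.09, SE 0.68, adjusted p = 5.6e-05).

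*Cspg4*, encoding the NG2 proteoglycan, had 4, 2 and 2 normalized counts in CTRL against 151, 75 and 112 in Act. *Tjp1*, encoding the tight junction scaffold ZO-1, had 3, 5 and 2 normalized counts in CTRL against 99, 106 and 95 in Act. *Nt5e* encodes CD73, the surface enzyme that makes adenosine from AMP, and rose from 7, 4 and 4 normalized counts in CTRL to 131, 122 and 98 in Act. All 3 genes were at 7 normalized counts or fewer in every CTRL library and at 75 or more in every Act library. The junctional adhesion molecule gene *F11r* rose from 16, 43 and 22 normalized counts in CTRL to 412, 420 and 463 in Act (log2 fold change 4.07, SE 0.27, adjusted p = 9.3e-08). *Cav1*, encoding caveolin, had 15, 17 and 7 normalized counts in CTRL against 214, 156 and 254 in Act, and *Spint1*, encoding an inhibitor of cell surface serine proteases, had 9, 10 and 5 normalized counts in CTRL against 132, 92 and 143 in Act. The remaining genes of this set were *Tmem119*, *Runx3* and *Spsb1*, described with their classes, the amino acid transporter gene *Slc36a2* (log2 fold change 4.11) and *Minar1* (log2 fold change 3.90).

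The 15 largest falls held cytoskeletal, neuronal and cytokine pathway genes. *Gprc5b* (ENSMUSG00000008734, chr7:118972047-118995211), an orphan G protein-coupled receptor, fell from 117, 162 and 123 normalized counts in CTRL to 6, 18 and 5 in Act (log2 fold change −3.85, SE 0.27, adjusted p = 1.5e-07). Of its exonic bases, 13.1% lie opposite *Iqck*, which was a DEG lower in Act as well (log2 fold change −1.84). *Tox2*, encoding a transcription factor of the HMG box family, had 336, 343 and 345 normalized counts in CTRL against 28, 58 and 14 in Act. In both genes Act replicate 2 was the highest Act library, and still far below every CTRL library. *Il1rl1* encodes ST2, the receptor of IL-33, and fell from 272, 183 and 120 normalized counts in CTRL to 37, 43 and 11 in Act, with a wide spread within both groups and no overlap between them (log2 fold change −2.75, SE 0.19, adjusted p = 1.4e-07). *Tslp*, an epithelial-type cytokine gene, had 89, 109 and 85 normalized counts in CTRL against 12, 16 and 4 in Act.

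*Tmod1*, encoding tropomodulin, which caps the slow-growing ends of actin filaments, had 403, 439 and 479 normalized counts in CTRL against 67, 88 and 34 in Act (log2 fold change −2.88, SE 0.21, adjusted p = 1.7e-07), and 32.6% of its exonic bases lie opposite *Tstd2*. *Coro2b*, of the actin-binding coronins, had 335, 332 and 328 normalized counts in CTRL against 59, 65 and 28 in Act. Act replicate 3 was the lowest library of both genes. The neuronal adhesion genes *Nrcam* and *Ctnnd2* fell to 33, 29 and 10 and to 15, 11 and 13 normalized counts in Act, from 237, 158 and 215 and from 153, 100 and 66 in CTRL. *Dio2* encodes the deiodinase that activates thyroid hormone and had 101, 88 and 84 normalized counts in CTRL against 7, 17 and 9 in Act. The other falls in this set were those of *Fbln5* (log2 fold change −2.85), *Osbp2* (−2.74), *Itgb3* (−2.66), the zinc transporter gene *Slc39a12* (−2.65), the noncoding gene *Gm10419* (−3.25), and *Gm42517* (−3.37), annotated as protein-coding, which share 139 exonic bases, each on its own strand.

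**Figure D2:**
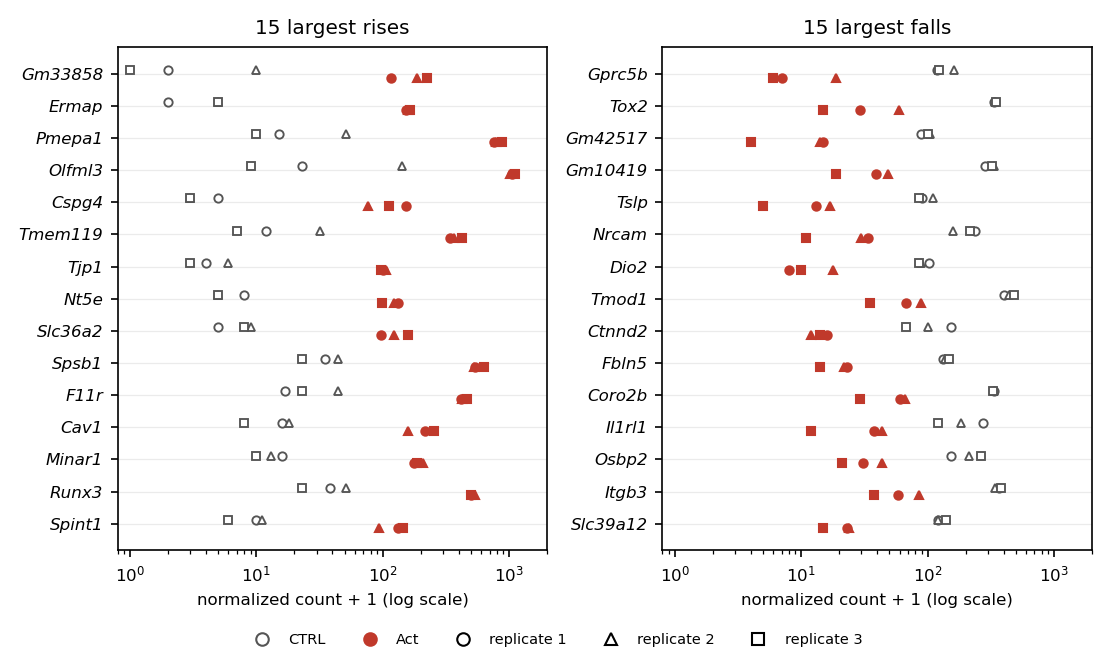
Normalized counts plus 1 (x axis, log scale) of the 15 largest rises and 15 largest falls in each library, open grey symbols for CTRL and filled red symbols for Act, with the shape giving the replicate number. The groups do not overlap, by the rule that chose the genes, and CTRL replicate 2 is the highest CTRL library of *Pmepa1*, *Olfml3* and *Tmem119*.

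By amount rather than ratio, the largest rise was that of *Cx3cr1* (ENSMUSG00000052336, chr9:119901616-120069879), the receptor of the chemokine fractalkine. It had 205, 502 and 80 normalized counts in CTRL against 2207, 2123 and 2142 in Act. The Act libraries were nearly equal, while CTRL replicate 2 lay far above and CTRL replicate 3 far below CTRL replicate 1 (log2 fold change 3.41, SE 0.41, adjusted p = 2.1e-05). *Axl*, a receptor tyrosine kinase for the uptake of apoptotic cells, rose from 826, 731 and 481 normalized counts in CTRL to 2176, 2096 and 2140 in Act. The complement component gene *C3* had 1034, 811 and 570 normalized counts in CTRL against 2434, 1967 and 2259 in Act. *Sorl1*, a sorting receptor of the endosome, had 1258, 1228 and 1047 normalized counts in CTRL against 2630, 2447 and 2358 in Act, and *Dst*, encoding the cytoskeletal linker dystonin, had 662, 434 and 469 normalized counts in CTRL against 2015, 1535 and 1675 in Act. *Itgal*, encoding the α subunit of the integrin LFA-1, rose from 851, 781 and 650 normalized counts in CTRL to 1725, 1692 and 1963 in Act (log2 fold change 1.24, SE 0.09, adjusted p = 2.9e-07). *Thbs1*, encoding thrombospondin-1, was the highest of these genes, with 3407, 2794 and 2622 normalized counts in CTRL against 4088, 4006 and 3830 in Act, and passed as a rise of 0.44 on the log2 scale (adjusted p = 0.0040, and 0.11 without the replicate block).

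The largest falls by amount were in abundant genes, and only that of *Tfrc*, the transferrin receptor, was a DEG. *Tfrc* had 1561, 1552 and 1547 normalized counts in CTRL against 565, 592 and 427 in Act (log2 fold change −1.57, SE 0.08, adjusted p = 1.3e-08). *Ahnak*, encoding a giant scaffold protein, had 4985, 4143 and 4417 normalized counts in CTRL against 3788, 3198 and 3207 in Act, and *Mrc1*, encoding the mannose receptor, had 3448, 3018 and 3265 normalized counts in CTRL against 2466, 2232 and 2158 in Act. Their log2 fold changes were −0.41 and −0.51. *Slc40a1*, encoding the iron exporter ferroportin, had a log2 fold change of −0.62. The lipoprotein lipase gene *Lpl* had 2739, 2280 and 2198 normalized counts in CTRL against 1806, 1591 and 1515 in Act, and *Cd36*, a fatty acid and scavenger receptor, had 1727, 1423 and 1412 normalized counts in CTRL against 783, 825 and 673 in Act, just inside 2-fold (adjusted p = 8.1e-08). The others were *Tns1*, *Epb41l1*, *Itsn1* and *Tecpr1*, with log2 fold changes of −0.90, −0.92, −0.57 and −0.53.

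Gene classes were described by counts over 49 lists, without a test of the lists. The highest share of passing rises was in the TGF-β superfamily list above and the highest share of passing falls in sterol synthesis and the cell cycle.

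**Figure D3:**
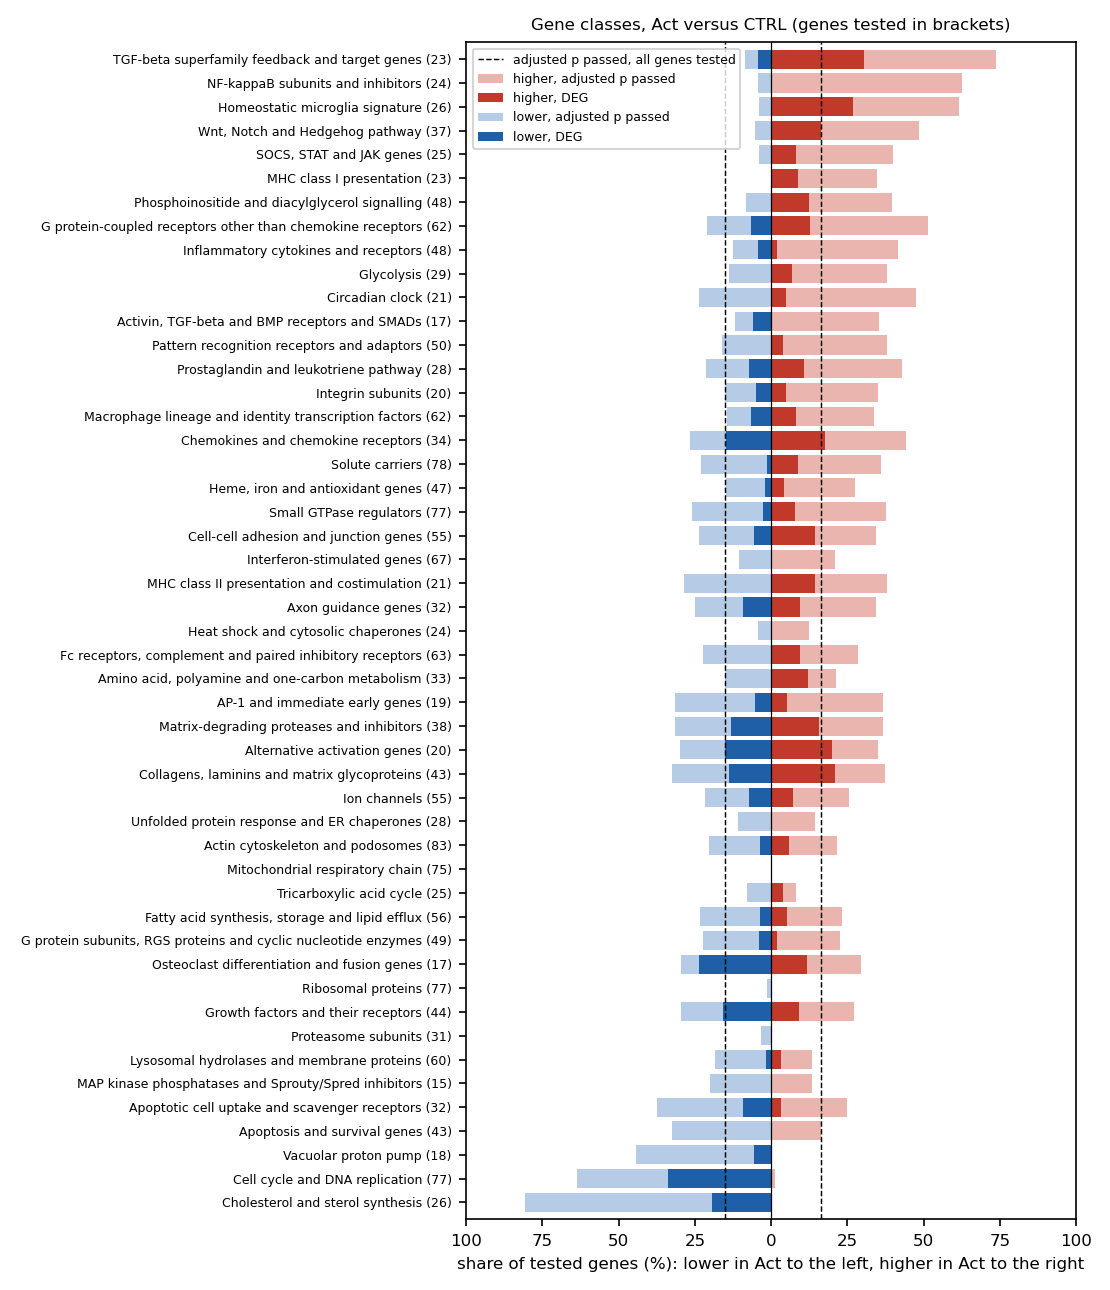
Share of the tested genes of each of the 49 classes that passed the adjusted p (pale bars) and that were DEGs (dark bars), higher in Act to the right (red) and lower in Act to the left (blue), with the number of genes tested in brackets. Dashed lines give the shares over all genes tested, 16.3% higher and 15.2% lower, and the classes are ordered by the difference between the pale bars.

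Genes of the homeostatic microglia signature, a set known to depend on TGF-β in the brain, rose. Of 26 tested, 16 passed as higher and 1 as lower, and 7 were DEGs, all higher (median log2 fold change 0.48). The rise of *Tmem119*, a surface protein used as a microglia marker, was from 11, 31 and 6 to 341, 364 and 422 normalized counts (log2 fold change 4.75, SE 0.42, adjusted p = 1.3e-06). *Gpr84*, a receptor for medium-chain fatty acids, rose from 78, 78 and 54 normalized counts in CTRL to 305, 303 and 369 in Act, and 39.5% of its exonic bases lie opposite a noncoding gene. *Olfml3* and *Cx3cr1* are the other 2 leading members of this list. The list holds genes that macrophages share with microglia, and its median normalized count of 565 was above that of all genes tested.

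G protein-coupled receptors other than chemokine receptors changed often, with 32 of 62 passing as higher and 13 as lower (8 and 4 DEGs, median log2 fold change 0.39). Besides *Gprc5b* and *Gpr84*, *Gpr18* rose from 21, 31 and 12 normalized counts in CTRL to 86, 80 and 84 in Act. *Gprc5c*, of the same orphan family as *Gprc5b*, fell from 776, 833 and 760 normalized counts in CTRL to 211, 245 and 173 in Act, with groups far apart and little spread (log2 fold change −1.92, SE 0.06, adjusted p = 1.8e-10). Downstream of the receptors, 49 genes of G protein subunits, RGS proteins and cyclic nucleotide enzymes were tested. Of these, 11 passed as higher and 11 as lower (6 and 6 without the replicate block). The DEGs, 1 higher and 2 lower, were 6.12% of the list, near the 6.30% of all genes tested. *Adcy3*, an adenylyl cyclase gene, was lower at 313, 298 and 199 normalized counts in Act compared with 617, 543 and 494 in CTRL, and *Pde4d*, encoding an enzyme that degrades cyclic AMP, was higher at 165, 156 and 128 compared with 96, 57 and 67. *Adcy3* shares 22.1% of its exonic bases with *Cenpo* on the opposite strand.

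In phosphoinositide and diacylglycerol signalling, all 6 DEGs of 48 tested genes were higher, while 19 passed as higher and 4 as lower. *Inpp4b*, encoding a phosphatase of phosphatidylinositol 3,4-bisphosphate, had 223, 135 and 207 normalized counts in CTRL against 929, 739 and 770 in Act (log2 fold change 2.13, SE 0.12, adjusted p = 1.7e-08). *Plcb4*, a phospholipase C gene, had 38, 36 and 27 normalized counts in CTRL against 183, 163 and 148 in Act. *Plcl1* and *Plcd1*, other genes of phospholipase C family proteins, rose by 1.96 and 1.01 on the log2 scale. Among regulators of small GTPases, 6 of 77 were DEGs higher and 2 lower. The exchange factor gene *Arhgef40* rose from 66, 51 and 68 normalized counts in CTRL to 399, 322 and 426 in Act. *Arhgef37*, of the same kind, rose by 1.54 on the log2 scale, *Arhgap24*, encoding a GTPase-activating protein, rose by 1.09, and *Rasgrp4*, an activator of Ras, had a log2 fold change of −1.09, with 15.4% of its exonic bases opposite *Fam98c*. The count of lower DEGs was 1 without CTRL replicate 2 or without Act replicate 3.

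The Wnt, Notch and Hedgehog list held 6 DEGs of 37 tested, all higher. In the Notch pathway the ligand gene *Jag1* rose from 137, 92 and 67 normalized counts in CTRL to 460, 342 and 447 in Act (log2 fold change 2.11, SE 0.17, adjusted p = 5.0e-07). *Mfng*, encoding a glycosyltransferase that modifies Notch, rose from 119, 123 and 91 normalized counts in CTRL to 312, 334 and 352 in Act. *Jag2* had 73, 29 and 30 normalized counts in CTRL against 113, 75 and 73 in Act, and passed only with the replicate block (adjusted p = 3.0e-04, and 0.12 without it). The Wnt receptor gene *Fzd1* had 159, 132 and 146 normalized counts in CTRL against 356, 364 and 338 in Act.

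Among 62 transcription factors of macrophage lineage and identity, 21 passed as higher and 9 as lower (5 and 4 DEGs, the latter 2 without Act replicate 3). *Runx3* (ENSMUSG00000070691, chr4:135120652-135177990), known as a factor downstream of TGF-β in lymphoid cells, had 37, 50 and 22 normalized counts in CTRL against 494, 534 and 502 in Act (log2 fold change 3.85, SE 0.32, adjusted p = 7.4e-07). *Sox4* rose from 118, 114 and 101 normalized counts in CTRL to 511, 511 and 469 in Act, but 54.6% of its exonic bases lie opposite *Gm26735*. *Bach2*, encoding a repressor, rose from 89, 89 and 75 normalized counts in CTRL to 278, 297 and 255 in Act. *Irf4*, an interferon regulatory factor known for alternative activation, fell from 440, 398 and 372 normalized counts in CTRL to 132, 155 and 130 in Act (log2 fold change −1.53, SE 0.09, adjusted p = 3.1e-08).

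The bases before 1 RefSeq start site of *Runx3* are shown because *Runx3* is among the 15 largest rises and this start site follows the palindrome GTCTAGAC. SMAD proteins are known to bind this palindrome. Promoter sequences are those of RefSeq on GRCm38.p6. The window covers the 250 bases before the start, chr4:135152295-135152544 on the plus strand, with the palindrome in capitals. It lies inside the span of the gene given above, and whether this start site is used in these cells was not tested.
Runx3: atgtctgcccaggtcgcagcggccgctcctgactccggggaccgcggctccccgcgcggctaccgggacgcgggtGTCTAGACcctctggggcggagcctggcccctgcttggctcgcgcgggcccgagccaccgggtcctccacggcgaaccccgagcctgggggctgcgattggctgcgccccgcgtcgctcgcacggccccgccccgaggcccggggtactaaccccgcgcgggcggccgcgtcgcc
Of all 32851 promoter windows, 55 (0.167%) held this palindrome, and of the 349 windows of DEGs higher in Act, that of *Runx3* was the only match. The shorter letters CAGACA, on either strand, stood in 17.2% of the windows of DEGs higher in Act, in 15.8% of those of DEGs lower in Act, and in 13.4% of those of all genes tested. A match is no proof of binding, and none of these shares was tested.

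The cytokine and chemokine lists held DEGs in both directions. Of 34 chemokines and chemokine receptors, 6 were DEGs higher and 5 lower (32.4% of the list, compared with 6.30% of all genes tested). *Cxcl14*, encoding a chemokine of epithelia and macrophages, rose from 48, 63 and 29 normalized counts in CTRL to 507, 502 and 517 in Act, at similar levels in the Act libraries (log2 fold change 3.49, SE 0.43, adjusted p = 2.7e-05). *Ccl7*, a ligand of the monocyte receptor CCR2, fell from 127, 103 and 92 normalized counts in CTRL to 26, 25 and 20 in Act (log2 fold change −2.13, SE 0.13, adjusted p = 4.7e-08), and *Ccl2*, another ligand of that receptor, fell by 2.06 on the log2 scale. Among 48 inflammatory cytokines and receptors, 20 passed as higher and 6 as lower, with 1 and 2 DEGs (1 lower without CTRL replicate 2, CTRL replicate 3 or Act replicate 1, and 2 higher without CTRL replicate 2). These DEGs were 6.25% of the list, near the 6.30% of all genes tested. *Il1b* rose from 147, 122 and 86 normalized counts in CTRL to 425, 410 and 445 in Act (log2 fold change 1.88, SE 0.22, adjusted p = 1.8e-05), and *Il10*, the anti-inflammatory cytokine gene, fell from 84, 89 and 76 normalized counts in CTRL to 28, 36 and 20 in Act (log2 fold change −1.57, SE 0.14, adjusted p = 1.2e-06).

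Most NF-κB subunits and inhibitors rose, by less than 2-fold. Of 24 genes tested, 15 passed as higher and 1 as lower, 0 were DEGs, and 18 were higher in all 3 pairs, at a median log2 fold change of 0.20. The most abundant members, *Ikbke* with 1641, 1732 and 1583 normalized counts in CTRL against 1728, 1749 and 1840 in Act and *Ikbkb* with 1338, 1408 and 1449 normalized counts in CTRL against 1398, 1458 and 1467 in Act, did not pass. SOCS, STAT and JAK genes had 10 of 25 passing as higher and 1 as lower (6 and 0 without the replicate block), with *Socs3* from 116, 131 and 99 to 243, 245 and 282 normalized counts and *Socs2* from 62, 81 and 80 to 137, 153 and 158. Both lay close to 2-fold, and leaving out any library but CTRL replicate 3 and Act replicate 2 left 1 of the DEGs or, for Act replicate 3, 0. Of 15 MAP kinase phosphatases and Sprouty and Spred inhibitors, 0 were DEGs. The phosphatase gene *Dusp3* passed at a log2 fold change of −0.13, and lost the threshold without the block (adjusted p = 0.13). *Spred1*, the other abundant member, had 1040, 841 and 834 normalized counts in CTRL against 960, 861 and 799 in Act (adjusted p = 0.34).

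Interferon-stimulated genes showed no common direction. Of 67 tested, 0 were DEGs, 14 passed as higher and 7 as lower (2 and 3 without the replicate block, and 5 higher without CTRL replicate 3 or 6 without Act replicate 3), and the most abundant, *Parp14* and *Slfn5*, had log2 fold changes of −0.0041 and 0.035 and did not pass. The pairs disagreed. The median log2 ratio of the list was −0.047 and −0.069 in the pairs of replicates 1 and 2, with 41 of 67 genes lower in Act in each, and 0.29 in the pair of replicate 3, with 7 lower.

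Cell cycle and DNA replication genes fell. Of 77 tested, 49 passed as lower (32 without replicate 1 of every group) and 1, *E2f2*, as higher (named after its value was seen), and 26 were DEGs, all lower (33.8% of the list, compared with 3.49% of all genes tested). In a test against a fold change of 2, 2 of these 26 DEGs remained, compared with 105 of the 499 lower over all genes tested. In all 3 pairs, 60 of the 77 were lower. The median log2 fold change was −0.52, and the medians within the pairs were −0.51, −0.51 and −0.44. *Cenpf* (ENSMUSG00000026605, chr1:189640606-189688086), encoding a kinetochore protein of mitosis, had 260, 191 and 190 normalized counts in CTRL against 42, 32 and 47 in Act (log2 fold change −2.38, SE 0.36, adjusted p = 1.9e-04). *Ccna2*, encoding cyclin A2, had 246, 232 and 200 normalized counts in CTRL against 46, 43 and 57 in Act (log2 fold change −2.20, SE 0.26, adjusted p = 2.0e-05), and 12.5% of its exonic bases lie opposite *Exosc9*. *Pole*, a DNA polymerase gene, fell from 121, 98 and 71 normalized counts in CTRL to 26, 25 and 20 in Act. *Rrm2*, encoding the subunit of ribonucleotide reductase that limits the supply of deoxynucleotides, fell from 172, 142 and 97 normalized counts in CTRL to 29, 42 and 38 in Act.

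The members of this list did not fall by like amounts, as the following genes show, which were chosen after their values were seen. The mitotic kinase gene *Plk1* fell from 109, 108 and 111 normalized counts in CTRL to 33, 27 and 31 in Act and the cyclin B2 gene *Ccnb2* from 136, 126 and 148 normalized counts in CTRL to 32, 29 and 54 in Act. The replication clamp gene *Pcna* had 363, 338 and 320 normalized counts in CTRL against 306, 292 and 286 in Act, and the helicase gene *Mcm4* had 464, 438 and 429 normalized counts in CTRL against 410, 414 and 354 in Act, log2 fold changes of −0.21 and −0.18. *Ccnd1*, encoding cyclin D1 of the entry into the cycle, had 710, 536 and 389 normalized counts in CTRL against 233, 183 and 106 in Act. *Cdkn1a*, encoding the cell cycle inhibitor p21, passed as lower as well (log2 fold change −0.34).

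Markers of neutrophils and their precursors went in part with the cell cycle genes. Of the 12 markers, 3 were DEGs lower, 1 passed as higher and 8 did not pass. The medians of the list within the pairs were −0.52, −0.0196 and 0.24, and its summed level did not separate the groups (2374 to 2929 in CTRL and 2664 to 3254 in Act). The members that passed are named after their values were seen. *Mpo* had 80, 162 and 54 normalized counts in CTRL against 15, 42 and 15 in Act, *Elane* had 29, 66 and 16 normalized counts in CTRL against 7, 13 and 9 in Act, and *Prtn3* had 24, 68 and 24 normalized counts in CTRL against 11, 22 and 16 in Act (adjusted p = 0.081 without the replicate block). *Csf3r*, the receptor gene for granulocyte colony-stimulating factor, had 1133, 1135 and 1044 normalized counts in CTRL against 1595, 1538 and 1505 in Act. The stem cell factor receptor gene *Kit*, of another list and also named after its values were seen, had 40, 59 and 34 normalized counts in CTRL against 16, 32 and 11 in Act. CTRL replicate 2 was the highest library of *Mpo*, *Elane*, *Prtn3* and *Kit*. In bulk RNA, fewer cells of a type and less RNA per cell cannot be told apart, and the part of these cells in the fall of the cell cycle genes was not tested.

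Upstream windows of 2 cell cycle genes that fell are shown because both hold the letters CCAAT, in capitals here in either orientation, more than once. These letters are known from promoters of mitotic genes, where the factor NF-Y binds. The windows are chr1:189688087-189688336 and chr9:70421555-70421804, both on the minus strand.
Cenpf: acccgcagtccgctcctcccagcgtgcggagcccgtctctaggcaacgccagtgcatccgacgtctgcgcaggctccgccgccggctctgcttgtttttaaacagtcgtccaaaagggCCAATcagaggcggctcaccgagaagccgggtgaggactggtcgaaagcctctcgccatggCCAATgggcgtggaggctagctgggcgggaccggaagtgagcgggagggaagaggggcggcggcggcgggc
Ccnb2: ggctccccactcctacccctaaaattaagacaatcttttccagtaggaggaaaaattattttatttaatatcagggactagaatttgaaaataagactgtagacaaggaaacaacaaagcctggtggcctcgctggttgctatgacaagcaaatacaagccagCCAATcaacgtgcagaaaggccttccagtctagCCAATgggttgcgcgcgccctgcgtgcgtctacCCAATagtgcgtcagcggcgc
CCAAT stood, on either strand, in 33.9% of all promoter windows of this length and in 35.5% of those of the genes tested. It stood in 46 of the 72 windows of the tested cell cycle genes (63.9%). It stood in 16 of the 19 windows of cell cycle DEGs (84.2%) and in 19 of the 31 windows of cell cycle genes that did not pass as lower (61.3%). RefSeq start sites were at hand for 18 of the 26 DEGs. Of the DEGs lower in Act as a whole, 41.6% of 411 windows held it, and of those higher, 32.1% of 349. The cell cycle homology letters TTTGAA stood in 6 of the same 19 and in 8 of the same 31 windows, and the E2F letters TTCCCGC in 2 and in 3. The subsets of the cell cycle list were formed by their values, and the shares were not tested. Of the 8 strings searched, the AP-1 site TGANTCA stood in 5.73% and the PU.1 site GAGGAAGT in 2.29% of the windows of DEGs higher in Act, in 7.06% and 4.62% of those of DEGs lower in Act, and in 4.58% and 2.86% of those of the genes tested.

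**Figure D4:**
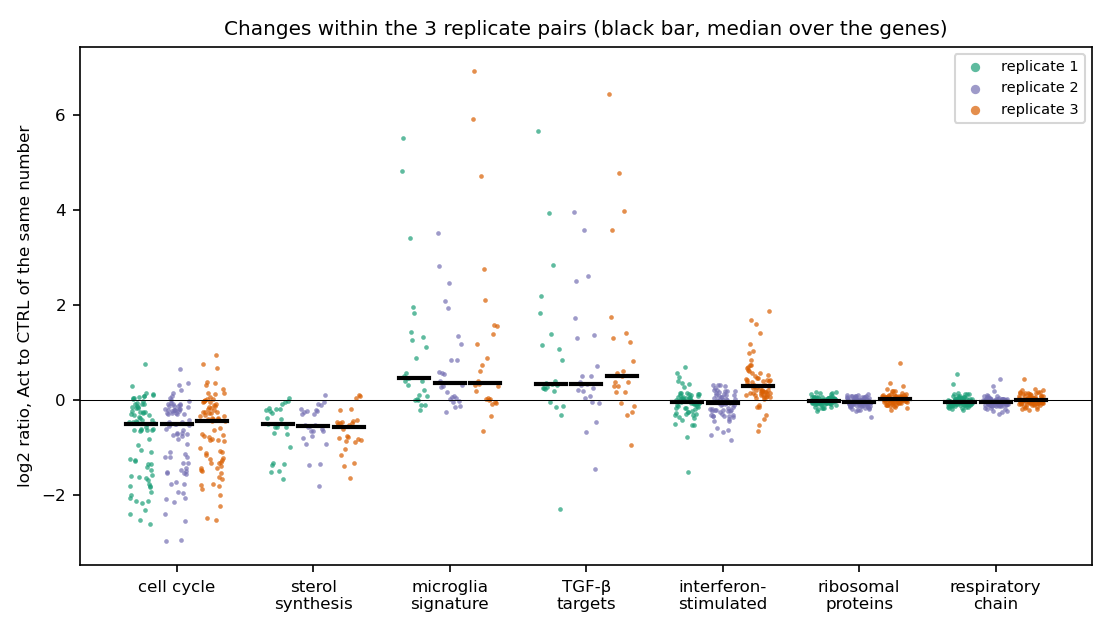
Log2 ratio of Act to CTRL of the same replicate number (y axis, on normalized counts plus 1) for each tested gene of 7 classes, with 1 column of points per pair and a black bar at the median. Cell cycle and sterol synthesis medians lie below 0 in all pairs, microglia and TGF-β medians above 0, and the interferon median is above 0 in the pair of replicate 3 alone.

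Genes of cholesterol synthesis fell. Of the 26 genes tested, 21 passed as lower and 0 as higher, 5 were DEGs, and 23 were lower in all 3 pairs (median log2 fold change −0.55). *Sqle*, encoding squalene epoxidase, had 353, 394 and 501 normalized counts in CTRL against 140, 152 and 191 in Act (log2 fold change −1.36, SE 0.06, adjusted p = 5.1e-09). *Hsd17b7*, whose product reduces a keto group of sterol intermediates, had 111, 91 and 130 normalized counts in CTRL against 39, 63 and 41 in Act.

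Replicate 3 was high for this pathway in both groups. CTRL replicate 3 was the highest CTRL library for 22 of the 26 genes and Act replicate 3 the highest Act library for 17. The summed level of the list was 10604, 10923 and 12959 normalized counts in CTRL against 7509, 7694 and 8737 in Act. The groups did not overlap, and the medians within the pairs were −0.51, −0.54 and −0.57. *Hmgcs1*, encoding a synthase of the early pathway (named after its values were seen), was lower by less, with 733, 740 and 918 normalized counts in CTRL against 635, 645 and 661 in Act. Of fatty acid genes, *Scd1*, encoding the desaturase that makes oleate, fell from 133, 236 and 338 normalized counts in CTRL to 32, 43 and 44 in Act (log2 fold change −2.46, SE 0.23, adjusted p = 2.4e-06), again highest in CTRL replicate 3. The fatty acid and lipid list as a whole had 13 of 56 genes passing as higher and 13 as lower (6 higher without the replicate block). *Apoc1*, encoding an apolipoprotein, rose by 1.47 on the log2 scale, and the transporter gene *Abcg3* had 607, 616 and 621 normalized counts in CTRL against 315, 301 and 225 in Act.

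Windows of 2 sterol genes are shown for the same letters, since CCAAT stood in at least 1 window of every sterol gene that was lower in Act and had a RefSeq start site, 14 of 14 (a gene has 1 window per start site). The windows are chr1:169969206-169969455 on the minus strand and chr13:119690101-119690350 on the plus strand.
Hsd17b7: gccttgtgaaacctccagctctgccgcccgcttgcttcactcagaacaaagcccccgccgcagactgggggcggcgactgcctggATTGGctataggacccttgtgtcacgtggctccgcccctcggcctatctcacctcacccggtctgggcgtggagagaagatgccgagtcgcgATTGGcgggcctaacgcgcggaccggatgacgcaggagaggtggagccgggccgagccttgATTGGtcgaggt
Hmgcs1: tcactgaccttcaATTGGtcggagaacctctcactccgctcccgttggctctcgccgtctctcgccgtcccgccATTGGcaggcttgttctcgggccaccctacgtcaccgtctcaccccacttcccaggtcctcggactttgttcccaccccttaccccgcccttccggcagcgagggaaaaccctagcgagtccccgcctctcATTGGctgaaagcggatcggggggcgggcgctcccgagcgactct
Of the 26 sterol genes tested, 19 had a start site there, and 18 of these 19 genes, lower or not, had CCAAT in at least 1 window (19 of 27 windows, 70.4%). The sterol regulatory element TCACNCCAC stood in 1 of the 14, compared with 1.01% of the windows of all genes tested, and this search was for the exact letters only.

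Of 33 genes of amino acid, polyamine and one-carbon metabolism, 4 were DEGs (12.1%), all higher, compared with 2.81% higher and 3.49% lower over all genes tested, while 7 passed as higher and 5 as lower (3 lower without the replicate block). *Arg2*, the mitochondrial arginase gene, had 30, 28 and 13 normalized counts in CTRL against 160, 149 and 176 in Act (log2 fold change 2.80, SE 0.23, adjusted p = 5.5e-07). *Kynu*, encoding kynureninase of tryptophan breakdown, had 37, 53 and 50 normalized counts in CTRL against 209, 263 and 223 in Act. *Ass1*, encoding argininosuccinate synthase, which regenerates arginine, had 41, 37 and 31 normalized counts in CTRL against 167, 114 and 170 in Act. *Il4i1*, encoding an amino acid oxidase, was higher at 176, 142 and 180 compared with 68, 79 and 56, but 83.9% of its exonic bases lie opposite *Tbc1d17*, and 285 of those of *Arg2* lie opposite *Vti1b*.

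Of 78 solute carriers, 7 were DEGs higher and 1 lower. The cystine and glutamate exchanger gene *Slc7a11* rose from 85, 54 and 83 normalized counts in CTRL to 382, 327 and 562 in Act and the zinc importer gene *Slc39a4* from 53, 53 and 60 normalized counts in CTRL to 305, 295 and 396 in Act. *Slc7a2*, encoding an arginine transporter, rose by 1.27 on the log2 scale. *Slc28a2*, a nucleoside transporter gene, fell from 317, 303 and 280 normalized counts in CTRL to 137, 114 and 103 in Act. *Acod1*, encoding the enzyme that makes itaconate, was the only DEG of 25 genes of the tricarboxylic acid cycle list, with 117, 112 and 55 normalized counts in CTRL against 458, 370 and 664 in Act (log2 fold change 2.42, SE 0.24, adjusted p = 4.3e-06). In glycolysis, 11 of 29 genes passed as higher and 4 as lower, with *Ldhb* and *Slc2a6* as the DEGs (log2 fold changes of 1.28 and 1.01, the latter just past 2-fold). In the heme, iron and antioxidant list, *Hp*, encoding haptoglobin, rose from 41, 86 and 42 normalized counts in CTRL to 171, 205 and 270 in Act, opposite to *Tfrc*.

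Osteoclast genes split. Of 17 tested, 2 were DEGs higher and 4 lower. *Ctsk*, encoding the bone-degrading protease cathepsin K, fell from 108, 120 and 80 normalized counts in CTRL to 30, 40 and 27 in Act (log2 fold change −1.64, SE 0.15, adjusted p = 2.3e-06), and *Itgb3*, encoding a subunit of the osteoclast vitronectin receptor, had 367, 343 and 379 normalized counts in CTRL against 57, 85 and 37 in Act. *Acp5*, encoding the tartrate-resistant phosphatase, rose from 99, 89 and 57 normalized counts in CTRL to 189, 174 and 181 in Act, and *Src* rose from 100, 94 and 76 normalized counts in CTRL to 259, 187 and 259 in Act. *Atp6v0d2*, a pump subunit linked to osteoclast fusion, had 1194, 1030 and 984 normalized counts in CTRL against 601, 548 and 422 in Act. It was the DEG among 18 genes of the vacuolar proton pump, of which 8 passed as lower and 0 as higher (5 lower without the replicate block). Its fold change was close to 2, and it was no DEG without CTRL replicate 3 or without Act replicate 3. Of 60 lysosomal genes, 8 passed as higher and 11 as lower (5 and 7 without the replicate block, and 22 lower with quantile normalization). In either direction, 31.7% of the list passed, near the 31.5% of all genes tested. *Ctse*, encoding cathepsin E, rose from 114, 119 and 88 normalized counts in CTRL to 294, 378 and 300 in Act.

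Immune recognition genes changed in part. Of 63 Fc receptors, complement genes and paired inhibitory receptors, 6 were DEGs, all higher, while 18 passed as higher and 14 as lower. *Treml4* had 59, 51 and 40 normalized counts in CTRL against 191, 152 and 169 in Act, and *Siglece*, an inhibitory receptor for sialic acids, had 96, 112 and 105 normalized counts in CTRL against 260, 258 and 313 in Act. *Sirpb1c* rose as well (log2 fold change 1.59). The study left out reads that align to several places, so reads common to near-identical members of its family were not counted. The same limit holds for *H2-Q6* and *H2-Q7*, the 2 DEGs among 23 genes of MHC class I presentation (1 without CTRL replicate 3), with log2 fold changes of 1.14 and 1.40. In the MHC class II and costimulation list of 21 genes, *H2-Ob*, encoding a subunit of a modulator of peptide loading, rose from 33, 32 and 14 normalized counts in CTRL to 119, 142 and 134 in Act, and *Icosl*, a ligand for T cell costimulation, rose from 393, 452 and 371 normalized counts in CTRL to 795, 795 and 878 in Act. Among 50 pattern recognition genes, *Clec5a*, a lectin receptor, rose from 250, 270 and 234 normalized counts in CTRL to 645, 560 and 617 in Act.

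Scavenger and alternative activation genes divided. Of 32 genes for uptake of apoptotic cells and scavenging, 8 passed as higher and 12 as lower. *Cd163*, encoding the receptor for hemoglobin bound to haptoglobin, fell from 252, 229 and 251 normalized counts in CTRL to 92, 107 and 62 in Act (log2 fold change −1.51, SE 0.13, adjusted p = 8.0e-07), while *Axl* rose as above. Of 20 alternative activation genes, 4 were DEGs higher (2 without Act replicate 3) and 3 lower. The folate receptor gene *Folr2* fell from 423, 343 and 289 normalized counts in CTRL to 137, 151 and 102 in Act, with 63.1% of its exonic bases opposite a noncoding gene. The transcription factor gene *Klf4* fell from 165, 153 and 158 normalized counts in CTRL to 71, 65 and 66 in Act. *Flt1*, encoding a VEGF receptor, rose from 35, 18 and 13 normalized counts in CTRL to 119, 93 and 141 in Act.

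Genes of the matrix, its proteases and adhesion were among the lists with the most DEGs both ways. Of 43 collagens, laminins and matrix glycoproteins, 9 were DEGs higher and 6 lower. *Col15a1*, encoding a basement membrane collagen, rose from 30, 43 and 48 normalized counts in CTRL to 283, 228 and 327 in Act (log2 fold change 2.77, SE 0.18, adjusted p = 6.3e-08). *Lama3*, encoding a laminin chain, fell from 858, 717 and 953 normalized counts in CTRL to 229, 221 and 96 in Act (log2 fold change −2.30, SE 0.22, adjusted p = 3.2e-06), and *Fbln5*, encoding an elastic fibre protein, had 131, 136 and 147 normalized counts in CTRL against 22, 21 and 13 in Act. The fibrillar collagen genes were low and uneven. *Col1a1* had 22, 3 and 3 normalized counts in CTRL against 83, 8 and 3 in Act, and *Col1a2*, a DEG, had 24, 0 and 0 normalized counts in CTRL against 109, 9 and 6 in Act. Replicate 1 was the highest library in every group of the series for both genes, and without the replicate block the adjusted p of *Col1a2* was 0.31. *Bgn*, encoding the proteoglycan biglycan, was a DEG of the same kind, with 16, 1 and 1 normalized counts in CTRL against 49, 5 and 3 in Act (adjusted p = 0.031, and 0.58 without the block). Without replicate 1 of every group, the list held 9 DEGs higher and 6 lower.

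Of 38 matrix-degrading proteases and inhibitors, 6 were DEGs higher and 5 lower. *Mmp2*, a gelatinase gene, had 23, 41 and 32 normalized counts in CTRL against 313, 343 and 388 in Act, and *Mmp14*, whose product activates it at the membrane, had 207, 341 and 193 normalized counts in CTRL against 1290, 1347 and 1288 in Act. *Htra1* and *Adamts6* rose by 1.81 and 1.59 on the log2 scale. In cell adhesion and junctions, 8 of 55 were DEGs higher and 3 lower, led by *Tjp1*, *F11r*, *Cav1* and *Ctnnd2* above. Of 83 actin cytoskeleton genes, 18 passed as higher and 17 as lower (11 and 11 without the replicate block). *Epb41l3*, a membrane-skeleton linker gene, rose from 196, 176 and 172 normalized counts in CTRL to 602, 693 and 646 in Act, and the formin gene *Fmnl3* rose from 471, 455 and 430 normalized counts in CTRL to 1128, 1087 and 1133 in Act, opposite to *Tmod1* and *Coro2b*. Of 32 axon guidance genes, 3 were DEGs each way (5 higher without Act replicate 1). *Rtn4rl1*, related to the Nogo receptor, rose from 51, 30 and 39 normalized counts in CTRL to 185, 169 and 172 in Act, and the netrin receptor gene *Unc5a* and *Ephb6* had log2 fold changes of −1.38 and −1.21.

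Among 44 growth factors and their receptors, 4 were DEGs higher (2 without CTRL replicate 1) and 7 lower (4 without Act replicate 3). *Met*, encoding the receptor for hepatocyte growth factor, rose from 45, 39 and 42 normalized counts in CTRL to 106, 77 and 87 in Act. *Fgf1* rose from 53, 51 and 38 normalized counts in CTRL to 137, 175 and 89 in Act, and *Gdf15*, encoding a stress-induced member of the TGF-β superfamily, fell from 167, 242 and 217 normalized counts in CTRL to 84, 107 and 101 in Act (log2 fold change −1.08, SE 0.08, adjusted p = 2.6e-07). In the prostaglandin and leukotriene pathway of 28 genes, *Ptges*, encoding a prostaglandin E synthase, rose from 20, 24 and 24 normalized counts in CTRL to 104, 81 and 119 in Act. *Alox5*, encoding the 5-lipoxygenase of leukotriene synthesis, rose from 106, 96 and 87 normalized counts in CTRL to 301, 253 and 296 in Act, and *Ptger3*, a prostaglandin E receptor gene, fell from 100, 85 and 97 normalized counts in CTRL to 31, 25 and 27 in Act.

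Of 55 ion channel genes, 4 were DEGs each way (2 lower without CTRL replicate 2 or without Act replicate 3). *Kcnj10* (ENSMUSG00000044708, chr1:172341210-172374085), encoding the inward rectifier potassium channel Kir4.1, had the smallest adjusted p of all genes tested, 6.3e-11. It had 184, 166 and 138 normalized counts in CTRL against 889, 813 and 712 in Act, that is 30.1 normalized counts per kilobase of exon in CTRL and 149 in Act, with log2 ratios of 2.27, 2.29 and 2.36 in the pairs. *Trpm2* rose from 564, 622 and 533 normalized counts in CTRL to 1148, 1247 and 1208 in Act, and *Mcoln3*, a lysosomal channel gene, fell from 250, 398 and 338 normalized counts in CTRL to 179, 175 and 128 in Act. In the circadian clock list, 10 of 21 genes passed as higher and 5 as lower. *Usp2*, a deubiquitinase gene, had 42, 52 and 45 normalized counts in CTRL against 293, 280 and 287 in Act (log2 fold change 2.61, SE 0.14, adjusted p = 1.3e-08). *Fosl2*, of the AP-1 family, had 719, 614 and 635 normalized counts in CTRL against 1167, 1180 and 1133 in Act, a rise under 2-fold, and *Zfp36*, encoding a protein that destabilizes cytokine mRNAs, had 724, 752 and 734 normalized counts in CTRL against 761, 763 and 725 in Act and did not pass.

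Some genes were near absent in 1 group. A mean under 5 in CTRL and of at least 20 in Act was found for 24 genes, and the opposite for 24 genes. Besides *Gm33858*, *Ermap*, *Cspg4* and *Tjp1*, the highest was *Tmeff1*, encoding a membrane protein with follistatin-like modules, with 2, 2 and 0 normalized counts in CTRL against 85, 59 and 117 in Act. In the other direction, *Cacna1b*, a calcium channel gene, had 56, 43 and 41 normalized counts in CTRL against 6, 5 and 2 in Act, and *Kcnq1*, a potassium channel gene, had 51, 42 and 31 normalized counts in CTRL against 1, 2 and 3 in Act. *Ankdd1a* fell from 52, 39 and 37 normalized counts in CTRL to 3, 1 and 1 in Act, and *Hrob*, encoding a factor of homologous recombination, from 35, 47 and 31 normalized counts in CTRL to 3, 3 and 5 in Act. The noncoding *D630033O11Rik* fell by 3.05 on the log2 scale.

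KEGG terms of the deposited table were ranked by their share of DEGs, with no test. In the KEGG term for the cell cycle, 17 of 118 genes were DEGs lower and 0 higher. Among KEGG terms, the highest shares of DEGs lower were in linoleic acid metabolism with 3 of 11 genes, α-linolenic acid metabolism with 3 of 13 and steroid biosynthesis with 3 of 16. The term for cell adhesion molecules had 13 of 84 DEGs higher and 3 lower, and that for arachidonic acid metabolism 4 of 33 each way. The highest shares of DEGs higher among KEGG terms, 6 of 29 and 6 of 30, were in graft-versus-host disease and type I diabetes mellitus. GO terms, ranked separately, reached higher shares, with 8 of 11 genes of the outer kinetochore DEGs lower and 5 of 10 genes of amino acid import DEGs higher.

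Of the 49 lists, those of the respiratory chain, ribosomal proteins and the proteasome held the fewest genes that passed. Of 75 respiratory chain genes, 0 passed in either direction, and the most abundant, *Sdha* and *Atp5a1*, had log2 fold changes of −0.034 and −0.070. Of 77 ribosomal protein genes and of 31 proteasome genes, 0 were higher and 1 each was lower. *Rpl4* and *Rps3* had log2 fold changes of −0.0024 and 0.037, and *Psmd1* and *Psmd2* of 0.053 and −0.034. Of 24 chaperones, 28 genes of the unfolded protein response and 43 apoptosis genes, 0 were DEGs. *Hspa4* passed as a rise of 0.28 on the log2 scale. *Sel1l*, a component of ER-associated degradation, had 1955, 1776 and 1810 normalized counts in CTRL against 1835, 1668 and 1619 in Act and passed only with the replicate block (adjusted p = 0.027). *Hsp90ab1* and *Canx* did not pass (adjusted p = 0.71 and adjusted p = 0.94). Of the apoptosis genes, 14 passed as lower and 7 as higher (9 lower without the replicate block), and the most abundant, *Mcl1* and *Cflar*, did not pass.

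These classes are abundant per length, and few DEGs were found at such levels. The share of DEGs went from 7.08% higher and 8.86% lower among 3769 genes under 0.02 normalized counts per exonic base to 0 of 164 genes at 0.4 and over. No gene exceeded 0.883 per base, the level of *Psap*. The respiratory chain genes had a median of 0.138 and the ribosomal protein genes of 0.113, compared with 0.0481 for the cell cycle list and 0.0619 for all genes tested. Other lists with high medians held unlike numbers of DEGs. The microglia list, at a median of 0.172, held 7 DEGs of 26 genes, and the unfolded protein response list, at 0.199, held 0 of 28. These medians are over all members of a list and not over its DEGs. They therefore do not tell at what level the DEGs of a list lie, and the part of level in these counts was not tested. In the range from 0.1 to 0.2, 599 of 3314 genes passed as higher and 474 as lower. A correction for reads that share a start position was applied to these scaled values, whose depth is unknown. It alters values little at such levels. The respiratory chain, ribosomal protein and proteasome lists, with median log2 fold changes of −0.03, −0.011 and 0.006, could hardly gain DEGs by it. Their 0 DEGs after the correction therefore decide nothing. With it, the DEGs over all genes numbered 415 higher and 509 lower.

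**Figure D5:**
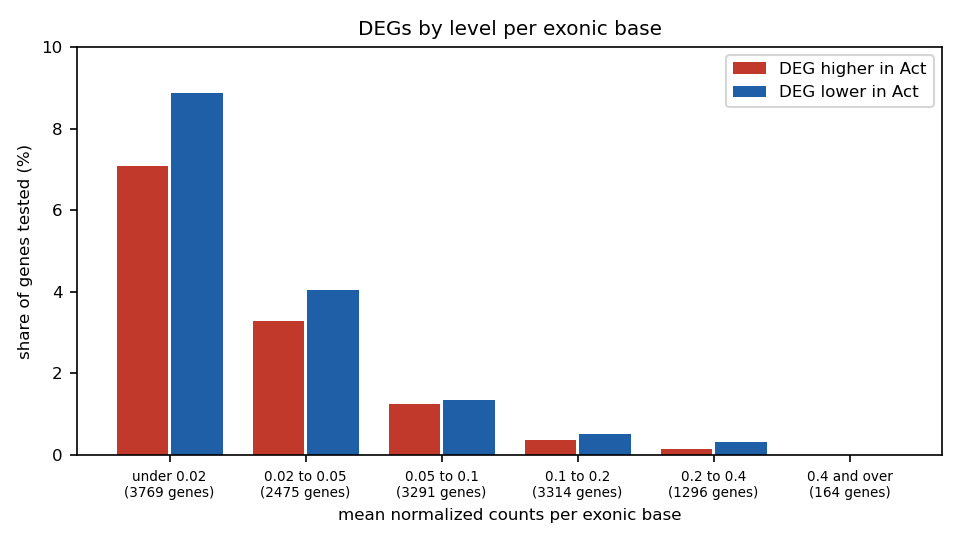
Share of genes tested (y axis, percent) that were DEGs higher (red) or lower (blue) in Act, by mean normalized counts per exonic base (x axis, 6 ranges with the number of genes in brackets). The share falls from 7.08% and 8.86% in the lowest range to 0 in the highest.

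The cells carried the labelled identity in both groups. The 10 macrophage markers, among them *Csf1r* and *Adgre1*, were detected in all libraries and summed to between 13284 and 14370 normalized counts in CTRL and between 13943 and 14576 in Act, with 0 DEGs. Monocyte markers summed to 1563 to 2454 in CTRL and 3060 to 3341 in Act, and 2 of the 10, *Ccr2* and *Hp*, were DEGs higher. Of the 10, 3 passed as higher, 2 as lower and 5 did not pass. The medians of this list within the pairs were −0.086, 0.024 and 0.86. Dendritic cell markers summed to 436 to 586 in CTRL and 538 to 661 in Act, with *Flt3* a DEG higher and *Cd209a* a DEG lower, and B cell markers to 88 to 126 and 84 to 123. Of the T and NK cell markers, 0 reached a mean of 5, and *Cd3e*, *Cd3g* and *Trac* were not analysed here. Hemoglobin genes were not analysed here either, and 5 other erythroid and megakaryocyte markers summed to 434 to 489 in CTRL and 341 to 433 in Act. Stromal markers summed to 91 to 124 in CTRL and 104 to 305 in Act, with the highest value in Act replicate 1. Endothelial markers, led by *Vwf*, summed to 1915 to 2279 in CTRL and 1312 to 1533 in Act, while *Pecam1* among them was a DEG higher in Act. Mast cell markers, mostly *Kit*, summed to 37 to 71 and 13 to 43.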

How the data were processed

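Total RNA of BMDMs was sequenced as single-end stranded mRNA libraries. Per the labels and the methods of the study, the authors trimmed reads with Trimmomatic 0.39, aligned them to mm10 with STAR 2.7.9a, counted them per gene of the Ensembl annotation with featureCounts 2.0.2 and analysed them with DESeq2 1.30.0. By those methods, reads that overlapped several genes or aligned to several places were left out. Reads in bases shared with a gene on the opposite strand were thus assigned by strand or dropped, depending on the strand setting. The deposited values are a signal per gene, normalized counts that are whole numbers after a scaling of each library. The formula of the factor, the strand setting of the counting and the number of reads behind 1 normalized count are not given in the sources used here, so counting intervals could not be given and count models were not fitted. The table also holds annotation columns, used for KEGG and GO terms.

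Values were analysed as log2(normalized count + 1) with limma 3.58.1 in R 4.3.3 (limma-trend). All 12 libraries entered 1 model with 4 group means and the replicate number as a block, and 14318 genes with a mean of at least 5 were tested, with Benjamini-Hochberg adjustment over all of them. Residuals of libraries with the same replicate number correlated positively in all 18 pairs of libraries (r from 0.157 to 0.481), which is why the block was used; the labels do not say what the number marks. The methods of the study name no block.

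The comparison, the 49 gene lists and the 10 marker lists were chosen with earlier results of these data known. Named genes were the 15 largest rises and falls (DEGs averaging 50 or more, groups not overlapping), the 10 largest differences in amount each way among genes that passed, up to 4 DEGs per list with a mean of at least 50 (or, without one, the 2 members with the highest mean), and the 5 highest genes each way with a mean under 5 in 1 group and of at least 20 in the other. Some genes that this rule takes are not reported here. Genes that the study itself names were counted in their lists, and a few of them are given with values. Exon lengths and overlaps come from GENCODE M21, in which 18359 of 18376 gene IDs were found, and coordinates are on mm10. Promoter windows were matched by symbol for 10269 of the genes tested.

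As a check of the fit, libraries were simulated for the comparison of Act with CTRL, and about 200 genes were given a change. The model called 148 of 198 genes changed 2-fold at an adjusted p of at most 0.05 (74.7%), with 12 false calls among 14285 genes. The simulated libraries were drawn independently, with no effect of the replicate number, so they cannot check the block. Far fewer genes were changed than the 4508 that passed in the data, so these rates hold for the simulated setting only. The alternatives were another pseudocount, filter, scaling, threshold, model or set of libraries. Leaving out replicate 1 of every group and a correction for reads with a shared start position were added after seeing the data.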

Additional observations from a re-analysis of the deposited data

How the results depend on the processing

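Few reads of a gene limit what can be called, and the depth before scaling is unknown. With a mean of at least 50 as the filter, DEGs numbered 164 higher and 205 lower in Act. In a test against a fold change of 2, 119 and 105 passed, and at a fold change of at least 1.5 there were 725 and 835 DEGs. A larger pseudocount, other scalings, no filter and the 6 libraries alone with the block kept these counts within 1.5 times. Without one library at a time, DEGs ranged from 349 to 430 higher and from 432 to 527 lower, and genes past the adjusted p from 1841 to 1975 higher and from 1719 to 1904 lower. Without replicate 1 in every group, which was added after seeing the data, 1511 and 1382 genes passed the adjusted p.

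The replicate block mattered for counts by adjusted p alone. Without the block 1468 genes were higher and 1428 lower, and with the 6 libraries alone and no block 1461 and 1344. All 369 and 442 DEGs without the block were among those with it. Of the named genes, *Thbs1*, *Dusp3*, *Jag2* and *Sel1l* lost the threshold without the block, and the other 161 kept their side of it.

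The filter of a mean of at least 50 kept 146 of the 165 named genes, and the others have no value under it. Of the 148 named genes that passed, 89 did so under every alternative that tested them, 59 failed the test against a fold change of 2, and 144 passed under every alternative that tested them but that one. *Dusp3* and *Sel1l* also lost the threshold without CTRL replicate 1, CTRL replicate 3, Act replicate 3 or replicate 1 of every group, and *Sel1l* without Act replicate 2. Sign changes among named genes were found for 8 genes that did not pass. The log2 fold change became −0.0145 for *Zfp36* and 0.0100 for *Parp14* with quantile normalization. Without replicate 1 in every group it was 0.0215 for *Parp14* and 0.0256 for *Rpl4*. Leaving out single libraries gave ranges from −0.0013 to 0.0710 for *Zfp36*, from −0.0470 to 0.0292 for *Parp14*, from −0.0229 to 0.0891 for *Slfn5*, from −0.0504 to 0.0505 for *Canx*, from −0.0047 to 0.0521 for *Hsp90ab1*, from −0.0611 to 0.0487 for *Rpl4*, from −0.0078 to 0.0754 for *Rps3*, and from −0.0596 to 0.0106 for *Mcl1*. The cause of these shifts was not tested.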
